A study of Mus musculus with 9 samples.

Results

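The genes described here are 40 mouse genes of the lysosome: 8 cysteine proteases, 3 aspartic or serine proteases, 10 glycosidases, 4 sulfatases, 6 lipid hydrolases or their activators, 7 membrane proteins of the lysosome and late endosome, and 2 regulators, progranulin (Grn) and the transcription factor Tfeb. They were chosen by name, as the entries of the deposited count table whose Ensembl identifiers carry these symbols in the GENCODE M21 annotation of GRCm38. All 40 were found among the 53801 genes of the table. All 40 also passed the filter on low counts, which left 12538 protein-coding genes for testing, and the member with the fewest counts had a median of 550 over the 9 libraries.

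The libraries come from mice with gliomas of GL261 cells that carry luciferase and tdTomato (luc+ tdT+), injected into male C57BL/6J mice aged 10 to 12 weeks. Cells positive for CD11b, a surface protein of myeloid cells, were sorted by FACS from the tumor-bearing hemisphere and their RNA was sequenced. CTR mice (2 libraries) received saline by mouth, OAT-1746 mice (2 libraries) the arginase inhibitor OAT-1746 by gavage at 50 mg/kg, 2 doses a day from day 1, and anti-PD-1 mice (2 libraries) an antibody to the immune checkpoint PD-1 at 2.5 mg/kg in 4 injections between days 8 and 14. COMB mice (3 libraries) received both agents. The study's methods place the collection of the cells at day 28 after implantation and a figure legend at day 21, and the files do not settle which applies. For anti-PD-1 replicate 2 the treatment field names a target other than PD-1, and its title decided the grouping. Whether a library holds the cells of 1 mouse or of several is not stated, so every p-value here measures only the spread between these libraries.

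Total counts ranged from 13048075 to 18796479 per library, with 17490386 and 17729568 in CTR, 17380045 and 16784406 in OAT-1746, 14356928 and 18796479 in anti-PD-1, and 13048075, 16144518 and 14806017 in COMB. Levels are CPM, counts scaled to the library's total over the tested genes times its TMM factor. The members took 5.92% and 5.88% of the counts of tested genes in CTR, 5.37% and 5.01% in OAT-1746, 5.36% and 5.38% in anti-PD-1, and 5.60%, 5.56% and 5.57% in COMB. Each of the 7 treated libraries was below both CTR libraries.

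Lysosomes are acidic compartments in which hydrolases break down protein, sugar chains, lipid and nucleic acid taken up from outside the cell or delivered by autophagy. Most of the soluble enzymes are made as inactive precursors, tagged with mannose 6-phosphate and sorted from the Golgi by receptors, and the acidity they need is made by a proton pump, the V-ATPase. Microglia and macrophages are rich in lysosomes, and their cathepsins also process antigens for MHC class II molecules and, when secreted, cleave the extracellular matrix around tumors.

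Many lysosomal genes carry the E-box CACGTG near their start, and TFEB and its relatives bind a longer form of it that contains TCACGTGA. RefSeq promoters, from 250 bases before to 50 after the start of a RefSeq transcript in GRCm38.p6, were found for 37 of the 40 members. Those of Ctsb, Ctsh and Asah1 were not in the table. Both words read the same on the opposite strand, and each TCACGTGA holds a CACGTG. Of 32851 mouse promoters of this length, 7.15% held CACGTG and 0.974% held TCACGTGA. Of the 42 promoters of members, 13 (31.0%) held CACGTG and 4 (9.52%) held TCACGTGA. The 13 members with CACGTG were Arsa, Ctsa, Ctsd, Ctsf, Ctsl, Gaa, Gla, Glb1, Lamp1, Lgmn, Mcoln1, Naglu and Sgsh. The longer word stood in the promoters of Gla at chrX:134600956-134601255 (- strand), Ctsa at chr2:164833523-164833822 (+ strand), Ctsd at chr7:142387778-142388077 (- strand) and Mcoln1 at chr8:3500269-3500568 (+ strand), which are shown because they hold it, with each CACGTG or TCACGTGA in capitals.
Gla: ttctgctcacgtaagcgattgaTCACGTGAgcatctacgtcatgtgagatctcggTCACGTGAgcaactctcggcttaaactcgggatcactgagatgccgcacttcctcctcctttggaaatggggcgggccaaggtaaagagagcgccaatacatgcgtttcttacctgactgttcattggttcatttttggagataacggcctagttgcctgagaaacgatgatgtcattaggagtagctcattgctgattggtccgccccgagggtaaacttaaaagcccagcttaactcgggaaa
Ctsa: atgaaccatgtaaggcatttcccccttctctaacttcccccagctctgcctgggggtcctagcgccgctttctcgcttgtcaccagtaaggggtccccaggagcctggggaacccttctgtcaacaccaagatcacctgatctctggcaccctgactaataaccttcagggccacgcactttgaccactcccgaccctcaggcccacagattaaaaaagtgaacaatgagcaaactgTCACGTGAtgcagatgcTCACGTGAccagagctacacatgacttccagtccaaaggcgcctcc
Ctsd: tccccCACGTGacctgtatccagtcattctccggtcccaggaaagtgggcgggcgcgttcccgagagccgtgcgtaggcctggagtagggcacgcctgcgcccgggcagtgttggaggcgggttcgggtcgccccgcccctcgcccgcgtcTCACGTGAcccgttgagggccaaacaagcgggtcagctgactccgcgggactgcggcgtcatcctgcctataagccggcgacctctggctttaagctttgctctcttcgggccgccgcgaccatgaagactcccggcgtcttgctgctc
Mcoln1: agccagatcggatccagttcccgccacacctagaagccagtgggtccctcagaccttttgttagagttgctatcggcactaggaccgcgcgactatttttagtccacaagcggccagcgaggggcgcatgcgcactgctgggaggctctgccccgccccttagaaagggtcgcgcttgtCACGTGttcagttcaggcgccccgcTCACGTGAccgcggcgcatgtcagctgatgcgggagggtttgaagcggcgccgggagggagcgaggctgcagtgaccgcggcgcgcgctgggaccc
These starts need not be that of the counted gene: the transcript start in the Cd63 promoter given below lies 8356 bases inside the annotated gene and that of Ctsa 900 bases. For Ctsa and Lgmn, another promoter lies nearer to the annotated gene start and holds no CACGTG. Counted from the start of the transcript, TCACGTGA began at -228 and -195 in Gla, at -13 and 5 in Ctsa, at -99 in Ctsd and at -46 in Mcoln1. Ctsd and Mcoln1 hold a further CACGTG outside the longer word. The promoters of Cd63 at chr10:128909095-128909394 (+ strand), Arsb at chr13:93771429-93771728 (+ strand) and Ids at chrX:70365036-70365335 (- strand) are shown because these are the 3 members that passed edgeR's test in COMB against OAT-1746. None of the 3 holds CACGTG in this window, so they carry no capitals.
Cd63: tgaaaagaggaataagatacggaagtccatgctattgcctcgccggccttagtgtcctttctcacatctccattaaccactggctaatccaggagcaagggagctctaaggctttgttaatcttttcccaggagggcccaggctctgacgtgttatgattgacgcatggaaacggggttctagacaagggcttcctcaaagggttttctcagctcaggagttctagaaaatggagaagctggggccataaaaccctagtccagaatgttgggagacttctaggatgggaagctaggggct
Arsb: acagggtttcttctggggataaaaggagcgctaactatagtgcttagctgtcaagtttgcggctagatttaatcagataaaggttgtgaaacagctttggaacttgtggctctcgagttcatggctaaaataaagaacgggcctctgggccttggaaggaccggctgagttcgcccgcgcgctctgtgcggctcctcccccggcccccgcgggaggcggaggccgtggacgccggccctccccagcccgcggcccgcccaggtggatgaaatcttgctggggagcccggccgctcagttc
Ids: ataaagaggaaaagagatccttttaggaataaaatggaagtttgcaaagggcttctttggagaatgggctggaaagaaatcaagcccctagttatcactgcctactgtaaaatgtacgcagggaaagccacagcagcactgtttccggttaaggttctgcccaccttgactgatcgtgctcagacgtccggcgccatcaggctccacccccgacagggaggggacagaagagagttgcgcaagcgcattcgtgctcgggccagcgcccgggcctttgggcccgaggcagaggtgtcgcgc
A match is a description of the letters and not a bound site.

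1 library stands apart and bears on every comparison with the OAT-1746 group. Across the tested genes, the correlation of log2 CPM (Pearson's r) between OAT-1746 replicate 2 and each of the other 8 libraries lay between 0.911 and 0.956, while pairs of those 8 reached 0.960 to 0.989. The points of these correlations are genes, which are not independent replicates, and they carry no p. Among the members, replicate 2 lay farther from the CTR mean than replicate 1 for 34 of 40 (85%), and both libraries lay on the same side of it for 35. The median absolute log2 difference of a member from the CTR mean was 0.23 in OAT-1746 replicate 1 and 0.39 in replicate 2, against 0.32 and 0.59 over all tested genes. More than 0.5 below the CTR mean on the log2 scale lay 6 members in replicate 1 and 12 in replicate 2, and more than 0.5 above it 3 and 4.

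The marker genes of cell types differ between the same libraries. The sort gene Itgam, which encodes CD11b, was present in all 9 libraries at 294 to 446 CPM. Summed over 10 microglia markers, of which Cx3cr1 is the most abundant, the level was 10011 and 16211 CPM in CTR, 22473 and 28318 in OAT-1746, 15184 and 12889 in anti-PD-1, and 18714, 13399.7 and 12776 in COMB. Against CTR, all 10 had a higher level in OAT-1746, with a median log2 fold change of 0.96. None of the 10 passed edgeR's test there. Before adjustment 10 had p under 0.05 (32.3% of all genes did), and DESeq2 called 9 (17.3% of all genes). Summed over 10 monocyte and macrophage markers, led by Tgfbi, it was 13295 and 12142 CPM in CTR, 9172 and 1842 in OAT-1746, 12441 and 14571 in anti-PD-1, and 9842, 12359.9 and 12747 in COMB. All 10 were lower in OAT-1746 than in CTR, with a median of -1.06. Of these, edgeR called 0, 5 had p under 0.05 before adjustment, and DESeq2 called 3, beside the same shares of all genes. For Ly6c2 (929 CPM) and Plac8 (663 CPM), OAT-1746 replicate 1 lay above both CTR libraries. The log2 fold changes of these genes were -0.04 and -0.34. The ratio of the microglia sum to the monocyte and macrophage sum was 0.753 and 1.34 in CTR, 2.45 and 15.4 in OAT-1746, 1.22 and 0.885 in anti-PD-1, and 1.90, 1.08 and 1.00 in COMB, so that OAT-1746 replicate 2 has by far the most microglia signal relative to that of monocytes. In COMB against OAT-1746, 10 of 10 microglia markers were lower with a median of -0.71, and 2 of them passed the test (15.8% of all genes did). In bulk RNA, fewer cells of a type and less RNA per cell cannot be told apart, and the part of this balance in the members' differences was not tested.

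Other cell types left less signal. The sums, which hold only the markers that passed the filter on low counts, were 609 to 877 CPM for 7 markers of border-associated macrophages, led by F13a1, and 329 to 742 CPM for 10 neutrophil markers, led by Csf3r, with OAT-1746 replicate 2 lowest in the former and highest in the latter. NK cell markers, led by Gzma, summed to 36.4 and 35.2 CPM in CTR, 52.0 and 16.4 in OAT-1746, 214 and 109 in anti-PD-1, and 47.1, 96.5 and 104 in COMB. The 4 tested of 8 T cell markers summed to at most 12.3 CPM, and Cd3e, among those not tested, had 8 counts or fewer in every library; the 3 tested of 5 B cell markers summed to at most 25.4 CPM and the 6 tested of 7 glioma cell markers to at most 26.8 CPM. Dendritic cell, astrocyte, endothelial, oligodendrocyte and erythroid markers reached at most 137, 226, 153, 317 and 30.7 CPM. Against CTR, 6 of 6 neuron markers, whose CPM are not given here, had a higher level in OAT-1746. Of these, 3 had an unadjusted p under 0.05 and edgeR called 0. DESeq2 gave an adjusted p to only 2 of the 6 and called 1. Neutrophil markers were higher there for 8 of 10 and lower for 2 (median 0.75), with 5 higher at an unadjusted p under 0.05. Border-associated macrophage markers were higher for 4 of 7 and lower for 3, with 2 on each side under 0.05. In both lists edgeR called 0. DESeq2 called 1 neutrophil marker higher, and 1 border-associated macrophage marker higher and 2 lower.

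**Figure D1:**
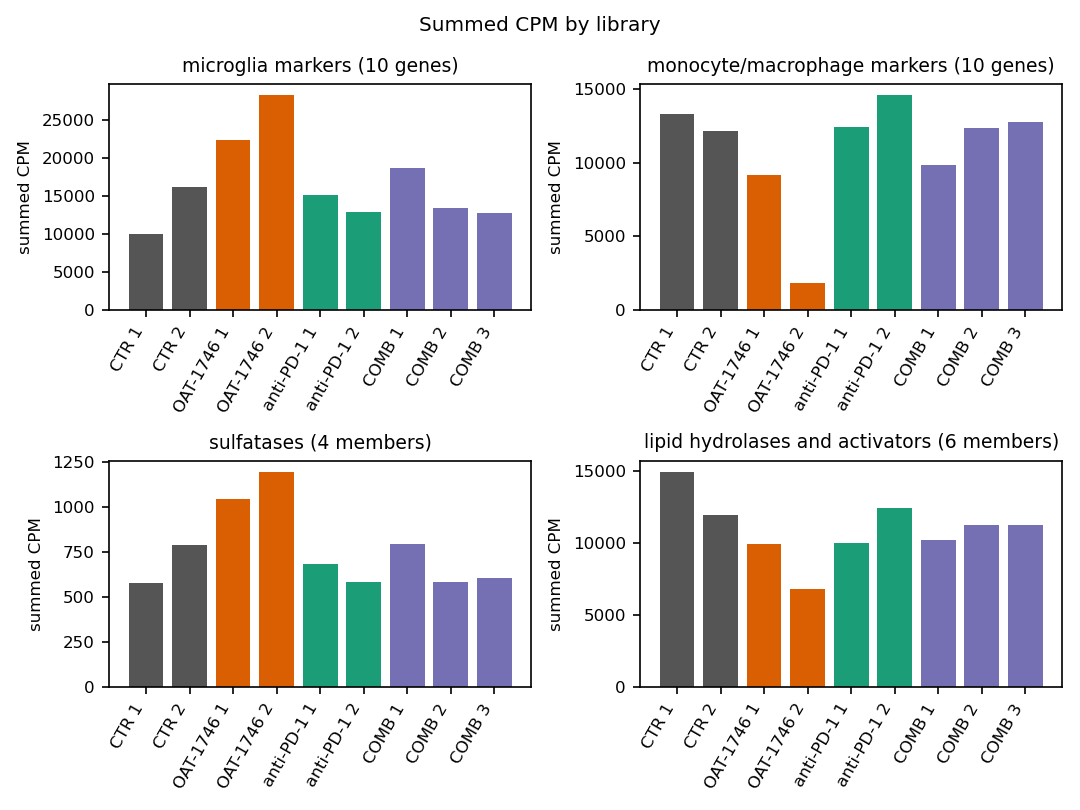
Bars give the summed CPM of a list of genes in each of the 9 libraries, coloured by group; every axis starts at 0. Microglia markers peak at 28318 CPM and monocyte and macrophage markers drop to 1842 CPM in OAT-1746 replicate 2, the library in which the 4 sulfatases are highest (1198 CPM) and the 6 lipid hydrolases and activators lowest (6762 CPM).

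The members differ in abundance by several orders of magnitude. Compared per kilobase of exon, which makes levels of genes comparable, cathepsin S (Ctss), a protease that trims the MHC class II invariant chain, was the most abundant at a mean of 6472 CPM per kb. Prosaposin (Psap), the precursor of the saposins that present lipids to hydrolases, followed at 3299.5, then the asparaginyl endopeptidase legumain (Lgmn) at 2017, cathepsin D (Ctsd) at 1327, cathepsin Z (Ctsz) at 1114, Laptm5 at 1027, Grn at 948 and cathepsin B (Ctsb) at 913. At the other end stood Tfeb at 11.975, the beta-mannosidase gene Manba at 10.9 and Mcoln1, a calcium channel of the lysosomal membrane, at 4.43. The members named at the top are proteases, a lipid-binding precursor, the membrane protein Laptm5 and the regulator Grn. Most glycosidases and all sulfatases lie in the lower part, with Hexa at 435 the highest glycosidase. 6 members overlap another annotated gene on the same strand (Ctsl, Ctss, Ctsd, Glb1, Manba and Arsb), so some of their read pairs may have been left uncounted and their levels are less certain.

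**Figure D2:**
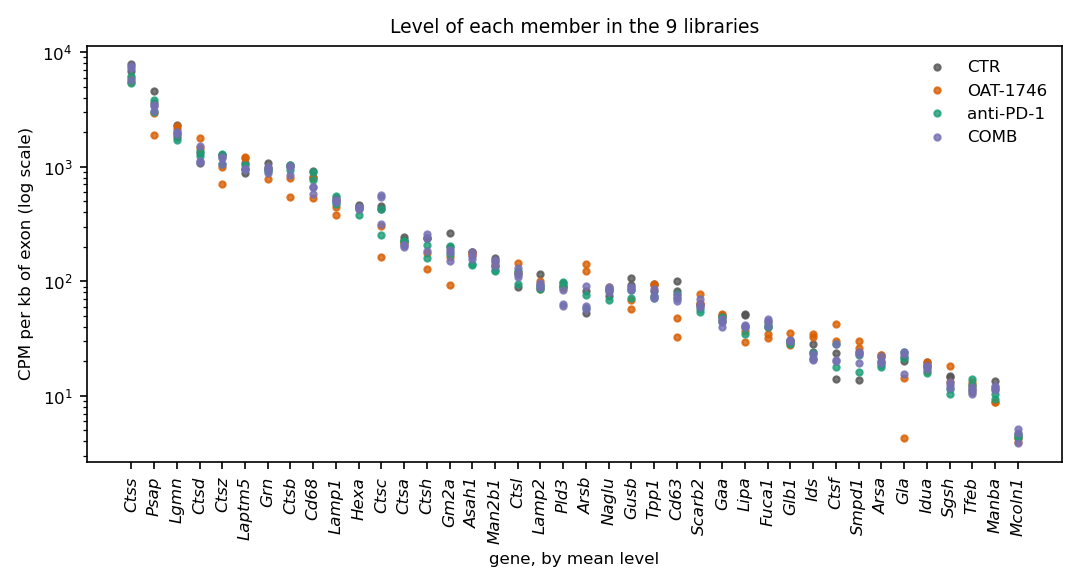
Each point is the level of a member in 1 library, in CPM per kb of exon on a log axis, with members ordered by their mean and libraries coloured by group. The spread between genes, from 4.43 to 6472 CPM per kb, is far wider than that between libraries, and OAT-1746 points hang below the others for Psap, Ctsb, Cd63 and Gla.

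Whether any member differs between any of the 4 groups was asked first, in a test over all of them. edgeR called 0 of 40 members and 24 of 12538 genes (0.191%). At an unadjusted p under 0.05 there were 7 members, against 27.7% of all genes, and DESeq2's likelihood ratio test called 6 members (Arsb, Cd63, Gusb, Ids, Lipa and Manba), against 17.3%. The 24 genes became 2381, and 5 members were called, without OAT-1746 replicate 1, and 200 genes without COMB replicate 1; 12 were called without OAT-1746 replicate 2, and 0 without either CTR replicate, COMB replicate 2 or COMB replicate 3.

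**Figure D3:**
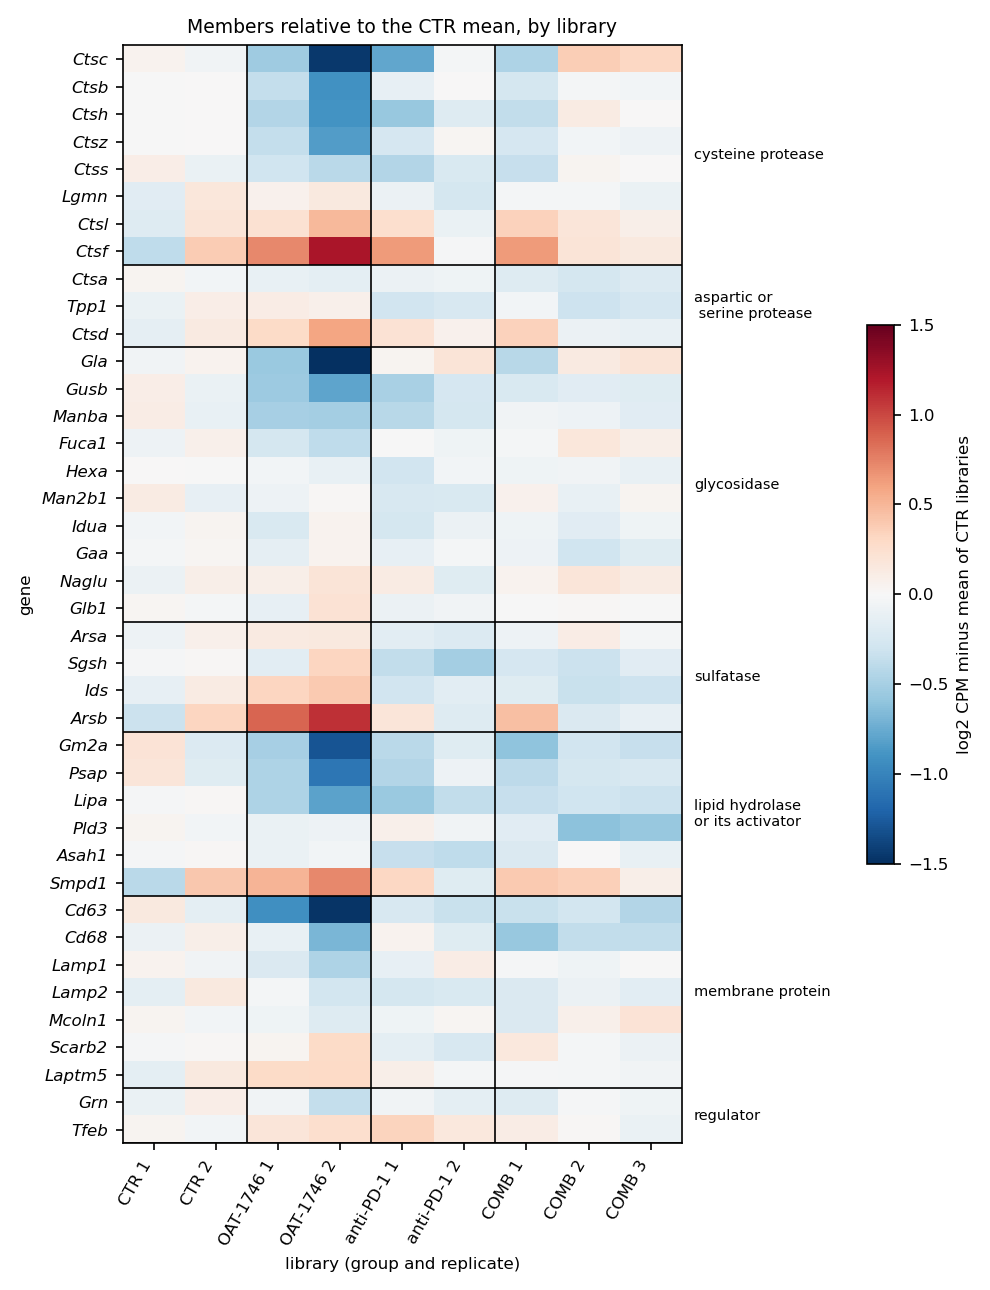
Colour gives log2 CPM of each member in each library minus the mean of the CTR libraries, by role, with the scale ending at -1.5 and 1.5. Blue fields collect in the OAT-1746 libraries, above all replicate 2, among cysteine proteases, glycosidases and lipid hydrolases, and red ones in Ctsf, Arsb and Smpd1.

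OAT-1746 against CTR asks what the inhibitor alone is associated with. Of the 40 members 25 were lower and 15 higher, with a median log2 fold change of -0.08 against 0.01 over all tested genes. edgeR called 0 members and 0 of 12538 genes (0%). At an unadjusted p under 0.05 there were 14 members, 3 higher and 11 lower, where 32.3% of all genes reached it, 16.1% higher and 16.2% lower. DESeq2 called 10 members, 2 higher and 8 lower, and 17.3% of all genes, 9.11% higher and 8.15% lower. Without overlap between the 2 groups, OAT-1746 was below CTR for 20 members and above it for 11, against 32.1% and 30.8% of all genes. By these counts the members lean to the lower side more than all genes do, a difference that was not tested.

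Cysteine proteases were lower in OAT-1746 for 5 of 8 members and higher for 3, with a median of -0.47; 0 passed edgeR's test, 1 higher and 4 lower had p under 0.05 before adjustment, and DESeq2 called 1 higher and 2 lower. Ctsc, the dipeptidyl peptidase that activates granule serine proteases, had 2646 and 2464 CPM in CTR, 1771 and 937 in OAT-1746, 1486 and 2508 in anti-PD-1, and 1848, 3295 and 3163 in COMB. Both OAT-1746 libraries lie below CTR, replicate 2 the farther, but anti-PD-1 replicate 1 and COMB replicate 1 are low as well. Its log2 fold change was -0.92 ± 0.38 (SE, n = 2 and 2 libraries; edgeR adjusted p = 0.138). The general endopeptidase Ctsb had 6199 and 6212 CPM in CTR, 4847 and 3307 in OAT-1746, 5704 and 6209 in anti-PD-1, and 5159.5, 6091 and 6016 in COMB, and its log2 fold change was -0.61 ± 0.22 (edgeR adjusted p = 0.103). The carboxypeptidase Ctsz had 1807 and 1823 CPM in CTR, 1422 and 1016 in OAT-1746, 1521 and 1852 in anti-PD-1, and 1530.4, 1765 and 1717 in COMB. As for Ctsb, OAT-1746 replicate 2 is the lowest of the 9 libraries and replicate 1 the next, and the log2 fold change was -0.57 ± 0.21. The aminopeptidase Ctsh differed by -0.65 ± 0.23, with 1063 and 1073 CPM in CTR, 789.8 and 575 in OAT-1746, 720.2 and 937 in anti-PD-1, and 829, 1166 and 1073 in COMB; here anti-PD-1 replicate 1 lies between the OAT-1746 libraries. Ctss had 10614 and 9239 CPM in CTR, 8036 and 7461 in OAT-1746, 7326 and 8483 in anti-PD-1, and 7797, 10184 and 9959 in COMB. Its OAT-1746 libraries lie below CTR but not below anti-PD-1 replicate 1, and the log2 fold change of -0.36 ± 0.21 turned to 0.05 when gene length and GC content were corrected for.

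The 3 cysteine proteases on the other side are endopeptidases. Ctsf had 70.2 and 119 CPM in CTR, 151 and 213 in OAT-1746, 142 and 90.1 in anti-PD-1, and 143, 105 and 101 in COMB. Its log2 fold change in OAT-1746 was 0.94 ± 0.32 (edgeR adjusted p = 0.0941, DESeq2 0.0427), both libraries lying above all others. Ctsl, at 579.9 and 758 CPM in CTR, 777 and 929.6 in OAT-1746, 791 and 619.6 in anti-PD-1, and 839.6, 749 and 704 in COMB, differed by 0.35 ± 0.21. Lgmn had 4233 and 5380.3 CPM in CTR, 5005 and 5268 in OAT-1746, 4475 and 3974 in anti-PD-1, and 4689.7, 4665 and 4470.2 in COMB, and its OAT-1746 libraries fall between those of CTR. Ctsf and Ctsl are among the 8 members (20%) that were highest, in each of the 4 groups, in the library with the most microglia marker CPM; 10.1% of all tested genes were. The 8 are Arsb, Ctsd, Ctsf, Ctsl, Laptm5, Lgmn, Scarb2 and Smpd1. Lowest in those same libraries were 6 members (15%), Ctsc, Ctss, Gm2a, Gusb, Mcoln1 and Psap, against 10.8% of all genes. These orders are taken within each group of libraries.

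Among the aspartic and serine proteases, 2 of 3 were higher and 1 lower, and 0 had an unadjusted p under 0.05 or were called by edgeR or DESeq2. Ctsd, the main aspartic protease of the lysosome, had 2527 and 3069.6 CPM in CTR, 3404 and 4196 in OAT-1746, 3246 and 2902 in anti-PD-1, and 3547, 2613 and 2582 in COMB. Both OAT-1746 libraries are above CTR, but COMB replicate 1 lies between them, and the log2 fold change was 0.44 ± 0.22 (edgeR adjusted p = 0.201). The serine proteases Ctsa and Tpp1 stayed within 933 to 1155 CPM and 366 to 489.8 CPM over all 9 libraries.

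Glycosidases, which strip sugars from glycoproteins, glycolipids and glycosaminoglycans, were lower for 8 of 10, with a median of -0.08. edgeR called 0, 3 lower members had p under 0.05 before adjustment, and DESeq2 called 2 lower. Gla, the alpha-galactosidase that cleaves globotriaosylceramide, had 65.7 and 71.1 CPM in CTR, 46.4 and 13.9 in OAT-1746, 70.5 and 78.3 in anti-PD-1, and 51.1, 75.0 and 78.1 in COMB. OAT-1746 replicate 2 holds less than any other library, and COMB replicate 1 lies near OAT-1746 replicate 1. Its log2 fold change of -1.18 ± 0.44 (edgeR adjusted p = 0.113) was the lowest of the 40 and rests on that library: without OAT-1746 replicate 1 it was -2.30 (edgeR adjusted p = 0.00168) and without OAT-1746 replicate 2 it was -0.55 (0.344). The beta-glucuronidase Gusb had 484 and 421 CPM in CTR, 309.9 and 261 in OAT-1746, 322 and 380.3 in anti-PD-1, and 384, 403 and 399 in COMB, all 7 treated libraries lying below CTR, and differed by -0.67 ± 0.17 (edgeR adjusted p = 0.0689, DESeq2 0.00538). Manba had 94.8 and 80.6 CPM in CTR, 61.6 and 61.6 in OAT-1746, 65.6 and 73.0 in anti-PD-1, and 84.5, 83.1 and 77.8 in COMB; its OAT-1746 libraries are almost equal and the lowest of all, with a log2 fold change of -0.51 ± 0.14 (edgeR adjusted p = 0.0718, DESeq2 0.0245). Hexa, the alpha subunit of hexosaminidase A, was nearly level at 918 and 913 CPM in CTR, 889 and 847 in OAT-1746, 750.2 and 891 in anti-PD-1, and 873, 879.7 and 845 in COMB. Fuca1, Idua, Gaa, Naglu, Glb1 and Man2b1 lay within 0.5 of the CTR mean on the log2 scale in every library.

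Sulfatases, which remove sulfate from glycosaminoglycans and sulfatide, were higher for 4 of 4 members, with a median of 0.25 and a sum of 579 and 792 CPM in CTR, 1046 and 1198 in OAT-1746, 683 and 581 in anti-PD-1, and 793, 584 and 608 in COMB. edgeR called 0, 2 had p under 0.05 before adjustment, and DESeq2 called 1. Arsb, at chr13:93771630-93943016, + strand, which acts on dermatan and chondroitin sulfate, had 321 and 501 CPM in CTR, 736 and 858 in OAT-1746, 456 and 350.1 in anti-PD-1, and 549, 344 and 368 in COMB. Both OAT-1746 libraries stand above the other 7, and COMB replicate 1 is the next. The log2 fold change was 0.96 ± 0.29 (edgeR adjusted p = 0.079, DESeq2 0.0241). Ids, at chrX:70343069-70365084, - strand, a sulfatase needed early in the breakdown of heparan and dermatan sulfate, had 123 and 146 CPM in CTR, 168 and 175 in OAT-1746, 109 and 119 in anti-PD-1, and 118, 106 and 107 in COMB. Its OAT-1746 libraries are close together and the highest of the 9, with a log2 fold change of 0.36 ± 0.15 (edgeR adjusted p = 0.143). Sgsh had 64.2 and 65.9 CPM in CTR, 58.2 and 81.2 in OAT-1746, 50.3 and 45.5 in anti-PD-1, and 54.4, 51.9 and 57.8 in COMB, its OAT-1746 libraries lying on either side of CTR, and Arsa 65.9 to 84.1 CPM over all libraries. Most of the sum of the 4 is Arsb. Of the 4, Arsb alone was highest, in each group, in the library richest in microglia markers.

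Lipid hydrolases and their activators were lower for 5 of 6, with a median of -0.36 and a sum of 14925 and 11939 CPM in CTR, 9896 and 6762 in OAT-1746, 9991 and 12419 in anti-PD-1, and 10179, 11195 and 11259.5 in COMB; edgeR called 0, 3 lower members had p under 0.05 before adjustment, and DESeq2 called those 3. Psap had 12554 and 9804 CPM in CTR, 8061 and 5223 in OAT-1746, 8193 and 10529.6 in anti-PD-1, and 8434, 9266 and 9421 in COMB, with OAT-1746 replicate 2 the lowest, and a log2 fold change of -0.75 ± 0.25 (edgeR adjusted p = 0.0939). Gm2a, whose product lifts the ganglioside GM2 out of the membrane for hexosaminidase A, differed by -0.86 ± 0.27, with 1091 and 820.2 CPM in CTR, 668 and 386 in OAT-1746, 715 and 831 in anti-PD-1, and 622, 776 and 745 in COMB. The acid lipase Lipa, which releases cholesterol from low-density lipoprotein, had 344 and 351 CPM in CTR, 252 and 199 in OAT-1746, 237 and 269 in anti-PD-1, and 273, 283 and 277 in COMB. Its CTR libraries are above all 7 treated ones, and the log2 fold change in OAT-1746 was -0.62 ± 0.17 (edgeR adjusted p = 0.0702, DESeq2 0.00888). Smpd1, the acid sphingomyelinase, went the other way by 0.56 ± 0.27, with 46.0 and 81.3 CPM in CTR, 86.8 and 101 in OAT-1746, 76.0 and 53.8 in anti-PD-1, and 80.2, 78.1 and 64.9 in COMB; CTR replicate 1 is the lowest, and the log2 fold change of Smpd1 was 0.22 without it and 1.02 without CTR replicate 2. Asah1 and Pld3, described with the antibody groups, were close to CTR in OAT-1746.

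Membrane proteins were lower for 5 of 7, with a median of -0.16; edgeR called 0, 1 had p under 0.05 before adjustment, and DESeq2 called 1, Cd63 in both. Cd63, at chr10:128900989-128912822, + strand, encodes a tetraspanin of late endosomes, lysosomes and exosomes and had 369.7 and 304 CPM in CTR, 178 and 121 in OAT-1746, 284 and 266 in anti-PD-1, and 265, 277 and 248 in COMB. The OAT-1746 libraries are the lowest, with a clear gap to the other 7, and its log2 fold change was -1.17 ± 0.21 (edgeR adjusted p = 0.061, DESeq2 0.000101). It was -1.48 without OAT-1746 replicate 1 (edgeR adjusted p = 0.00223) and -0.91 without replicate 2 (0.234), negative in both but past the threshold in the former alone. Cd63 also passed it without COMB replicate 1 and with no filter on low counts. Cd68, the macrosialin used as a macrophage marker, had 1024 and 1148 CPM in CTR, 1006 and 673 in OAT-1746, 1125 and 954 in anti-PD-1, and 732, 839 and 843 in COMB. OAT-1746 replicate 2 is the lowest of the 9 and replicate 1 lies close to CTR, so that the log2 fold change of -0.37 ± 0.22 becomes -0.10 without replicate 2. The structural membrane protein Lamp1 had 1435 and 1331 CPM in CTR, 1185 and 1004 in OAT-1746, 1265 and 1489 in anti-PD-1, and 1363, 1318 and 1378 in COMB, a difference of -0.34 ± 0.17. Laptm5, which targets receptors of immune cells to the lysosome, had 3358 and 4095 CPM in CTR, 4526 and 4567 in OAT-1746, 3945 and 3625 in anti-PD-1, and 3649.6, 3646 and 3584 in COMB, with both OAT-1746 libraries above the other 7 and a log2 fold change of 0.29 ± 0.17. Mcoln1 had 34.8 and 33.1 CPM in CTR, 32.4 and 29.6 in OAT-1746, 32.5 and 34.5 in anti-PD-1, and 29.1, 35.9 and 39.0 in COMB, and Lamp2 and Scarb2 lay within 0.5 of the CTR mean on the log2 scale in every library.

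The regulators moved little. Grn, the precursor of granulins, had 3280 and 3769.5 CPM in CTR, 3387 and 2741 in OAT-1746, 3395 and 3165 in anti-PD-1, and 3074, 3483 and 3350.3 in COMB, where OAT-1746 replicate 2 is the lowest library and replicate 1 lies within the CTR range (-0.20 ± 0.18). Tfeb, the transcription factor that drives lysosomal genes, had 64.8 and 61.0 CPM in CTR, 71.1 and 74.6 in OAT-1746, 79.1 and 70.3 in anti-PD-1, and 67.9, 63.6 and 58.5 in COMB. Its log2 fold change of 0.21 ± 0.14 turned to -0.13 with the correction for gene length and GC content.

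**Figure D4:**
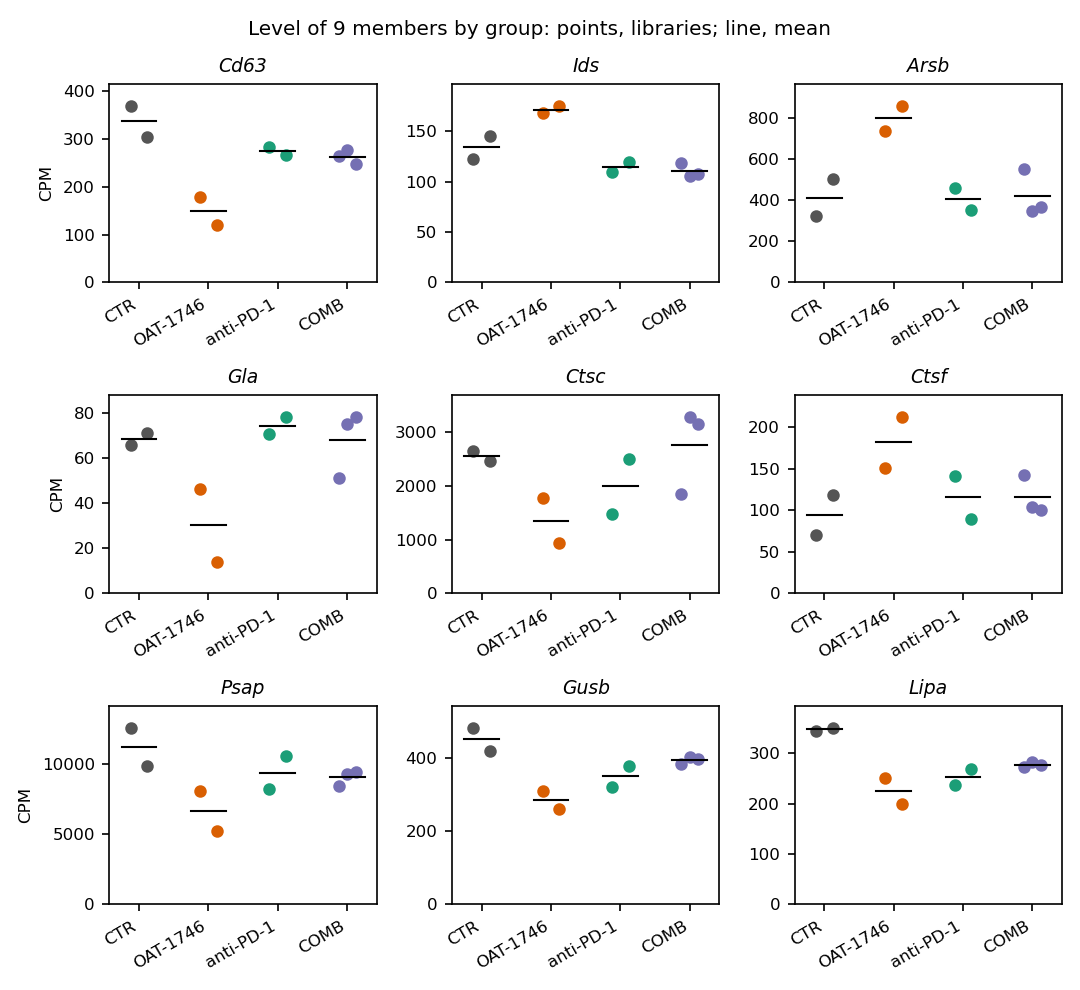
Level in CPM of 9 members, with a point for each library and a line at the group mean; axes start at 0. The OAT-1746 points of Cd63, Gusb, Lipa and Psap lie below the 2 CTR points and those of Arsb, Ids and Ctsf above them, and for Gla (46.4 and 13.9 CPM) and Ctsc the 2 OAT-1746 points are far apart.

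The pattern of the OAT-1746 group depends on which of its libraries is kept. Without OAT-1746 replicate 1, so with replicate 2 alone, edgeR called 13 members and 3617 genes against CTR; without replicate 2 it called 0 members and 0 genes. Without COMB replicate 1 there were 278 genes and 1 member, Cd63. In fits without an OAT-1746 replicate the lone library is assumed to vary like the other groups. The direction of the fold change was the same in both for 35 of 40 members, and the median absolute log2 fold change was 0.39 without replicate 1 and 0.22 without replicate 2. For Ctsc it was -1.45 and -0.52, for Ctsb -0.91 and -0.34, for Gm2a -1.31 and -0.51, for Psap -1.10 and -0.46, for Gusb -0.80 and -0.54, for Lipa -0.81 and -0.45, for Ctsf 1.17 and 0.69, and for Arsb 1.06 and 0.85. Gusb and Arsb thus differ less between these fits than Ctsc and Psap do. Without OAT-1746 replicate 2, Ctsz had -0.34, Ctsh -0.42, Ctsd 0.29 and Lamp1 -0.21, and Grn -0.05. Without CTR replicate 1, Ctsf had 0.62, Ctsl 0.18 and Laptm5 0.16. With the gene length and GC correction, Cd68 had -0.00, Ctsz -0.33 and Lamp1 -0.17.

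COMB against OAT-1746, the comparison of mice with and without the antibody among those given the inhibitor, is where members passed the test. Cd63 rose, and Ids and Arsb fell, each by the levels given above: the COMB libraries of Cd63 lie above both OAT-1746 libraries and those of Ids and Arsb below. Cd63 had a log2 fold change of 0.82 ± 0.19 (SE, n = 3 and 2 libraries; edgeR adjusted p = 0.0318, DESeq2 0.00158). Ids had -0.64 ± 0.14 (edgeR adjusted p = 0.0274, DESeq2 0.00159). Arsb had -0.92 ± 0.26 (edgeR adjusted p = 0.0443, DESeq2 0.0132). In all 3, the COMB level lies near or within the range of the CTR and anti-PD-1 libraries, and the OAT-1746 libraries are the ones apart.

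These 3 are 3 of 40 members, 1 higher and 2 lower, where 1979 of 12538 genes (15.8%) were called, 6.84% higher and 8.94% lower. At an unadjusted p under 0.05 were 12 members, 9 higher and 3 lower, against 37.1% of genes, and DESeq2 called 10, 8 higher and 2 lower, against 25.4%. The median over the members was -0.02 with 17 higher and 23 lower. Both groups were apart without overlap for 12 members with COMB higher, against 25% of genes, and for 12 with COMB lower, against 28.9%. The 3 calls need OAT-1746 replicate 2. Without it the log2 fold changes were 0.58 for Cd63 (edgeR adjusted p = 0.175), -0.59 for Ids (0.158) and -0.79 for Arsb (0.225); without OAT-1746 replicate 1 they were 1.13 (0.00407), -0.67 (0.0163) and -1.03 (0.0298). All 9 libraries share the estimate of the spread, and leaving out a library other than these can also end these calls. edgeR called 0 members without COMB replicate 2 (14 genes) or COMB replicate 3 (5 genes), Ids alone without CTR replicate 1 (734 genes) or anti-PD-1 replicate 1 (861 genes), and Ids and Cd63 without CTR replicate 2 (808 genes) or anti-PD-1 replicate 2 (927 genes). It called 5 members without COMB replicate 1 (2923 genes), and 12 without OAT-1746 replicate 1 (4033 genes), against 27 genes without OAT-1746 replicate 2. Over 17 alternative settings Ids was called in 12 with an adjusted p of 0.00159 to 0.227, Cd63 in 10 with 0.00158 to 0.217 and Arsb in 4 with 0.0132 to 0.262. None of the 17 turned their direction. With replicate number added as a block, edgeR called 0 members and 2 genes. With the gene length and GC correction as well, it called 0 members and 4 genes. Whether libraries of the same number share a batch is not stated. After removal of group means, such libraries correlated with r of -0.349 to 0.0999.

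By role, 2 of 4 sulfatases passed, both lower, and all 4 had a negative log2 fold change, with a median of -0.49. Of the 7 membrane proteins 1 passed, Cd63. No member of the other roles passed edgeR's test: 5 of 8 cysteine proteases were higher (median 0.36; 4 higher and 1 lower at an unadjusted p under 0.05, 3 called higher by DESeq2), 5 of 10 glycosidases were higher (4 and 4, all higher), 3 of 6 lipid hydrolases or activators were higher (0 and 0), 3 of 3 aspartic and serine proteases were lower (0 and 0), and the regulators split. Gla had 1.17 ± 0.42 (edgeR adjusted p = 0.0786) and Ctsc 1.03 ± 0.36 (edgeR adjusted p = 0.0743), the largest positive values among the members. Gla again rests on 1 library, with 2.30 without OAT-1746 replicate 1 and 0.56 without replicate 2. Ctsf, at -0.65 ± 0.29, was the lowest after Arsb. Without OAT-1746 replicate 2, Ctsc had 0.66, Ctsf -0.36, Ctsb 0.26 and Ctsh 0.38. DESeq2 also called Ctsb, Ctsh, Fuca1, Gusb and Manba higher, with edgeR values of 0.50 ± 0.20, 0.58 ± 0.22, 0.40 ± 0.13, 0.47 ± 0.16 and 0.41 ± 0.13. The microglia markers had the sign of the sulfatases here, and 9 of 10 monocyte and macrophage markers had that of Cd63 and Ctsc. Of 6 neuron markers 6 were lower, with a median of -1.96. edgeR called 4 of them, and DESeq2 called 3, the only 3 to which it gave an adjusted p. NK cell markers were higher for 8 of 8 (median 0.96; 3 at an unadjusted p under 0.05, 0 called by edgeR and 2 by DESeq2), and of 6 astrocyte markers 4 were higher and 2 lower, with 1 called by edgeR on each side.

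Anti-PD-1 against CTR asks what the antibody alone is associated with. Of the 40 members 32 were lower and 8 higher, with a median of -0.13 against 0.02 over all genes. edgeR called 0 members and 0 genes (0%); at an unadjusted p under 0.05 were 4 members, all lower, against 5.12% of genes, and DESeq2 called 0 members and 0.112% of genes. The 4 are Lipa, Sgsh, Asah1 and Manba. Lipa differed by -0.46 ± 0.17 (edgeR adjusted p = 0.951), with both anti-PD-1 libraries below CTR. Sgsh, which cleaves sulfate from heparan sulfate, differed by -0.44 ± 0.17, its anti-PD-1 libraries at 50.3 and 45.5 CPM against 64.2 and 65.9 in CTR. The acid ceramidase Asah1 differed by -0.36 ± 0.15 and Manba by -0.34 ± 0.14, which is -0.22 without CTR replicate 1. The largest positive values were 0.29 ± 0.32 for Ctsf, whose anti-PD-1 libraries lie on either side of CTR replicate 2, and 0.25 ± 0.14 for Tfeb. That of Ctsf turned to -0.03 without CTR replicate 1 and to -0.06 without anti-PD-1 replicate 1, and Tfeb had 0.16 without anti-PD-1 replicate 1 and 0.05 with the gene length and GC correction. All 8 NK cell markers were higher in this comparison, with a median of 2.32 (edgeR called 0, 7 had p under 0.05 before adjustment, DESeq2 called 3), and their part in the members' values was not tested.

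COMB against CTR gives both agents against none. NK cell markers were higher for 8 of 8 (median 1.35) and astrocyte markers for 5 of 6 (median 0.87), 4 of each at an unadjusted p under 0.05 and 0 called by edgeR or DESeq2. Of the members 28 were lower and 12 higher, with a median of -0.09 against -0.00 over all genes. edgeR called 0 members and 0 genes (0%), 1 member, Pld3, had an unadjusted p under 0.05 against 6.58% of genes, and DESeq2 called 0 members and 0.279% of genes. Pld3, a nuclease of the phospholipase D family that degrades DNA in the endolysosome, had 282 and 267 CPM in CTR, 257 and 261 in OAT-1746, 289.5 and 264 in anti-PD-1, and 245, 179 and 185 in COMB. COMB replicates 2 and 3 are far below the other 7 libraries and COMB replicate 1 is not. Its log2 fold change was -0.44 ± 0.17 (edgeR adjusted p = 0.752). Cd68 followed with -0.43 ± 0.20, all 3 COMB libraries lying below CTR. Gm2a had -0.42 ± 0.24, Cd63 -0.36 ± 0.18 and Lipa -0.33 ± 0.15, again below CTR in every COMB library; Cd63 had -0.18 without CTR replicate 1. The largest positive values, 0.30 ± 0.29 for Ctsf and 0.23 ± 0.25 for Smpd1, hang on CTR replicate 1, without which they were -0.01 and -0.10.

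COMB against anti-PD-1 gives the inhibitor on top of the antibody. Here 25 members were higher and 15 lower, with a median of 0.07 against -0.01 over all genes. edgeR called 0 members and 0 genes (0%), 1 member, again Pld3, had an unadjusted p under 0.05 against 7.23% of genes, and DESeq2 called 0 members and 0.434% of genes. edgeR's count of genes became 52 without OAT-1746 replicate 1, 41 without OAT-1746 replicate 2 and 5 without anti-PD-1 replicate 1, with 0 members in each. All COMB libraries lay above both anti-PD-1 libraries for 10 members, against 10% of genes, and below for 4 (Cd68, Ctsa, Pld3 and Tfeb), against 16.4%. The 10 are Arsa, Asah1, Glb1, Gusb, Lamp2, Lipa, Man2b1, Manba, Scarb2 and Sgsh. Pld3 differed by -0.45 ± 0.17 (edgeR adjusted p = 0.631) and Cd68 by -0.37 ± 0.20. At the other end stood Ctsc with 0.47 ± 0.35 and Ctsh with 0.30 ± 0.22, both of which have wide and overlapping ranges in the 2 groups. Without anti-PD-1 replicate 1 they were 0.14 for Ctsc and 0.12 for Ctsh, and without anti-PD-1 replicate 2 0.90 and 0.51. NK cell markers were lower in COMB for 8 of 8 (median -0.99; 2 at an unadjusted p under 0.05) and monocyte and macrophage markers for 9 of 10 (median -0.50; 0), while neutrophil markers had a median of 0.73, with 5 higher and 1 lower at an unadjusted p under 0.05; edgeR and DESeq2 called 0 of these.

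The interaction, the effect of OAT-1746 in the presence of the antibody minus its effect without it, tests whether those effects differ. edgeR called 0 members and 45 genes (0.359%). At an unadjusted p under 0.05 were 8 members, 6 positive and 2 negative, against 26.2% of genes, and DESeq2 called 5 members (Cd63, Ctsh, Gusb, Lipa and Manba), all positive, against 9.05% of genes. The median over the members was 0.16, with 27 positive and 13 negative, against -0.02 over all genes. Microglia markers were negative for 10 of 10 (median -0.91; 4 at an unadjusted p under 0.05, 0 called by either tool) and NK cell markers for 7 of 8 (median -1.12; 2 at an unadjusted p under 0.05, 0 called by edgeR and 1 by DESeq2). Ctsc had the largest positive value, 1.39 ± 0.52 (edgeR adjusted p = 0.146), being lower in OAT-1746 than in CTR and higher in COMB than in anti-PD-1. Cd63 came next with 1.11 ± 0.28 (edgeR adjusted p = 0.0958, DESeq2 0.0111). Manba had 0.75 ± 0.19, Gusb 0.84 ± 0.23, Lipa 0.76 ± 0.22 and Ctsh 0.95 ± 0.32. The lowest were Ctsf with -0.94 ± 0.43 and Arsb with -0.90 ± 0.39. Without CTR replicate 1 they had -0.60 (Ctsf) and -0.59 (Arsb), and Ctsf had -0.58 without anti-PD-1 replicate 1. Without OAT-1746 replicate 1 edgeR called 8 members and 2734 genes, and without replicate 2 it called 0 members and 26 genes. The 45 genes became 424 without COMB replicate 1 and 0 without either CTR replicate, anti-PD-1 replicate 2, COMB replicate 2 or COMB replicate 3.

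**Figure D5:**
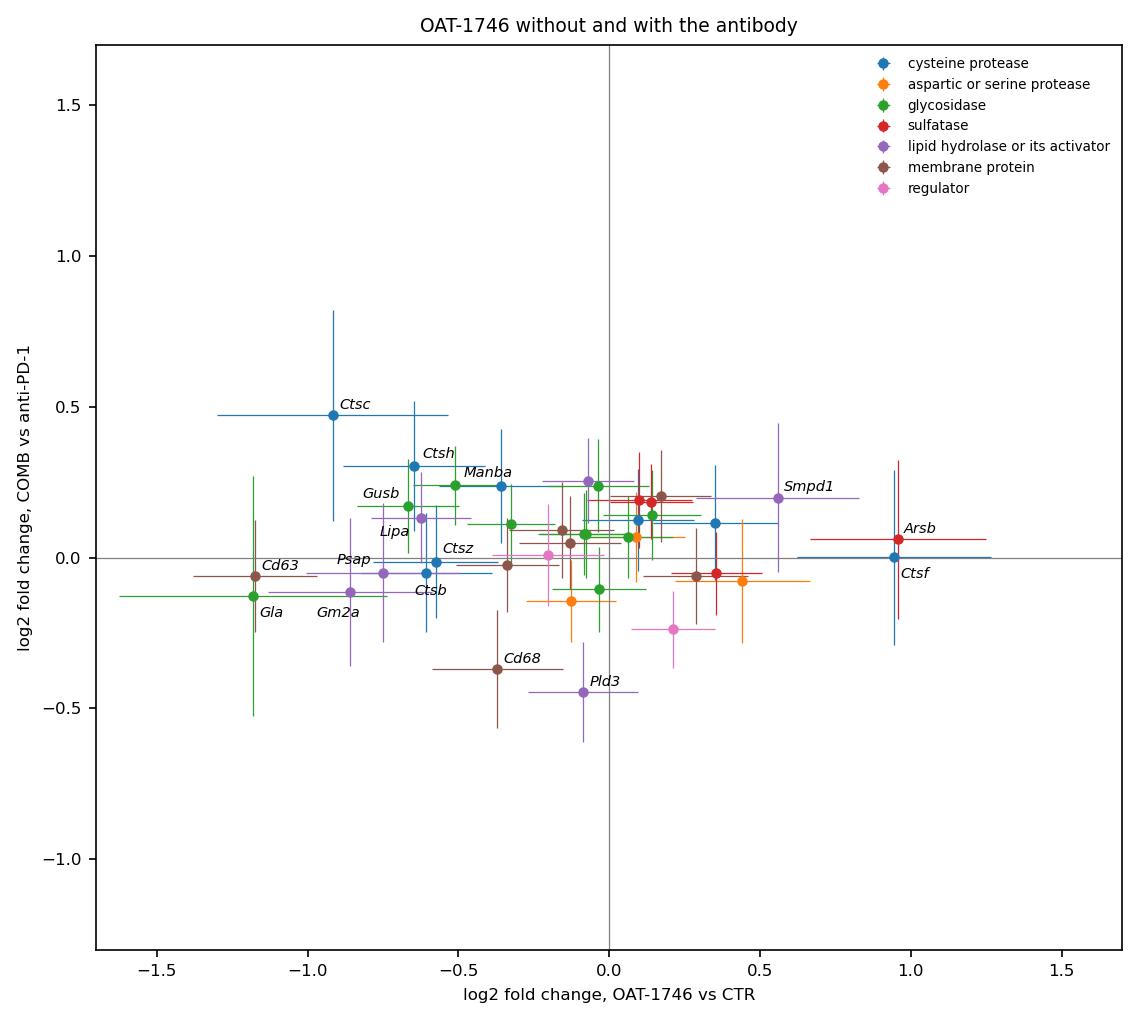
Log2 fold change of each member in OAT-1746 against CTR (horizontal) and in COMB against anti-PD-1 (vertical), which share no library, with bars of 1 SE and colours by role. The members spread from -1.18 to 0.96 without the antibody and from -0.45 to 0.47 with it, and no member passed edgeR's test in either.

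Split by the E-box, the 13 members with CACGTG in the promoter had a median of 0.10 in OAT-1746 against CTR, 8 higher and 5 lower, and the 24 without it -0.18, 7 higher and 17 lower. In anti-PD-1 against CTR the medians with and without it were -0.02 and -0.21, and in COMB against CTR -0.0006 and -0.10. The members with the E-box thus had the higher median in each comparison with CTR. In COMB against OAT-1746 the medians were -0.14 and 0.02, and in COMB against anti-PD-1 0.05 and 0.07. The difference between members with and without the E-box was not tested. Of the 4 with TCACGTGA, whose promoters are given above, none passed edgeR's test in OAT-1746 against CTR. Their log2 fold changes there were -1.18 for Gla, -0.13 for Ctsa, 0.44 for Ctsd and -0.13 for Mcoln1. Cd63, Arsb and Ids, which have no match, passed it in COMB against OAT-1746, Cd63 higher and the others lower.

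The other genes of the lysosome were taken from lists by function, which also hold the member Tfeb. In OAT-1746 against CTR, 0 genes of these lists passed edgeR's test. Between COMB and OAT-1746, 13 of 106 tested genes of the lists passed (12.3%, against 15.8% of all genes); each is named because it passed, some of them outside the rule for named genes. Of these 13, edgeR called 10 without OAT-1746 replicate 1, 11 without COMB replicate 1, 4 without either anti-PD-1 replicate, 1 without either CTR replicate, and 0 without OAT-1746 replicate 2, COMB replicate 2 or COMB replicate 3. DESeq2 called all 13, edgeR 10 with DESeq2's size factors, 8 with library size only, 12 with no filter on low counts, 6 with all genes in place of protein-coding ones and 6 with the gene length and GC correction. With replicate number added as a block edgeR called 0 of the 13, also with that correction, though a batch shared by libraries of the same number is not stated. Among 33 tested of 35 further lysosomal hydrolases, in OAT-1746 against CTR, 23 were lower and 10 higher (median -0.21; 9 with an unadjusted p under 0.05 against 32.3% of all genes, 1 called by DESeq2 against 17.3%). The tartrate-resistant phosphatase Acp5 had 577 and 333 CPM in CTR, 166 and 13.6 in OAT-1746, 183 and 388 in anti-PD-1, and 265, 273 and 274 in COMB and the lowest value of the list, -2.34 ± 0.87, which is -5.07 without OAT-1746 replicate 1 and -1.44 without replicate 2. Between COMB and OAT-1746, 2 of the 33 passed the test, both higher: the RNases Rnaset2a (0.61 ± 0.17) and Rnaset2b (0.65 ± 0.19), which are closely related genes. Among genes of that list with a mean of at least 5 CPM, the highest value was that of Acp5, 1.59 ± 0.80, which is 4.32 without OAT-1746 replicate 1 and 0.72 without replicate 2, and the lowest that of the mannosidase Man2b2, -0.45 ± 0.17.

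Subunits of the V-ATPase were lower in OAT-1746 than in CTR for 16 of 18 genes, with a median of -0.46; 1 higher and 8 lower had p under 0.05 before adjustment (16.1% and 16.2% of all genes did), and DESeq2 called 4, all lower (8.15% of all genes). Their sum was 3289 and 3483 CPM in CTR, 3047 and 2522 in OAT-1746, 3274 and 3345 in anti-PD-1, and 2990.4, 3569 and 3314 in COMB. The OAT-1746 sums are below those of CTR, replicate 2 being the lowest of all. Atp6v0c, a subunit of the proton-conducting ring, had -0.85 ± 0.28 and Atp6v0a2 0.39 ± 0.15. In COMB against OAT-1746, 15 of 18 were higher (median 0.40). Of the 18, 2 rose past the test (15.8% of all genes passed it), Atp6v1h by 0.75 ± 0.19 (edgeR adjusted p = 0.0366) and Atp6v1e1 by 0.57 ± 0.17 (0.0498). At an unadjusted p under 0.05 were 10 higher and 2 lower (37.1% of all genes for both signs). DESeq2 called 7 higher and 1 lower (25.4%). Atp6v0a1, at -0.49 ± 0.16, was the lowest. Without OAT-1746 replicate 2 Atp6v0a1 had -0.32 and, against CTR, Atp6v0c -0.56; without CTR replicate 1 Atp6v0c had -0.50.

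Of 31 genes for lysosomal membrane transport and the docking of mTORC1, 19 were lower and 12 higher in OAT-1746 than in CTR (median -0.10; 11 with an unadjusted p under 0.05 against 32.3% of all genes, 3 called by DESeq2 against 17.3%). The chloride transporter gene Clcn7 had -0.72 ± 0.32 and Flcn, whose product acts on the Rag GTPases that recruit mTORC1, 0.98 ± 0.25. In COMB against OAT-1746, 17 of the 31 had a positive and 14 a negative value. Of these edgeR called 5, all negative, while at an unadjusted p under 0.05 were 9 positive and 8 negative ones (37.1% of all genes for both signs), and DESeq2 called 3 positive and 5 negative ones (25.4%). Fnip1, the partner of Flcn, fell by 1.05 ± 0.18 (edgeR adjusted p = 0.0192), with 59.5 and 52.9 CPM in CTR, 75.4 and 111 in OAT-1746, 50.1 and 63.5 in anti-PD-1, and 46.4, 43.9 and 45.2 in COMB. Flcn fell by 0.78 ± 0.22 (-1.12 without OAT-1746 replicate 1 and -0.32 without replicate 2), the nucleoside transporter gene Slc29a3 by 0.50 ± 0.14, the channel gene Tpcn1 by 0.70 ± 0.19 (-0.41 with the gene length and GC correction) and Cd164 by 0.66 ± 0.17. Clcn7 had the largest positive value, 0.90 ± 0.30. Without OAT-1746 replicate 2 Clcn7 had 0.57, and against CTR Clcn7 had -0.37 and Flcn 0.54.

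Genes for the mannose 6-phosphate tag and for sorting were lower in OAT-1746 than in CTR for 11 of 15 (median -0.41; 8 with an unadjusted p under 0.05 against 32.3% of all genes, 4 called by DESeq2 against 17.3%). The mannose 6-phosphate receptor gene Igf2r had 32.9 and 23.8 CPM in CTR, 18.4 and 6.18 in OAT-1746, 17.6 and 36.2 in anti-PD-1, and 23.6, 21.4 and 34.2 in COMB and a log2 fold change of -1.21 ± 0.50, which is -2.20 without OAT-1746 replicate 1 and -0.61 without replicate 2. Sort1, for the sorting receptor sortilin, had 0.83 ± 0.30. In COMB against OAT-1746 the retromer gene Vps29 rose by 0.64 ± 0.16 and was the only one of the 15 to pass edgeR's test; Igf2r had 1.10 ± 0.46 (2.10 and 0.53 without OAT-1746 replicate 1 and 2) and Gga3 -0.59 ± 0.20 (-0.32 without OAT-1746 replicate 2).

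Of 11 cathepsin inhibitors 5 were tested; in OAT-1746 against CTR 3 were higher and 2 lower, 1 had p under 0.05 before adjustment, and DESeq2 called 1. Cystatin C (Cst3), an abundant secreted inhibitor, had 4412 and 6239 CPM in CTR, 9261 and 10976 in OAT-1746, 7898 and 6163 in anti-PD-1, and 7878, 6097 and 5754 in COMB. Its OAT-1746 libraries are the highest of the 9, its log2 fold change was 0.93 ± 0.25 against CTR, and -0.62 ± 0.23 in COMB against OAT-1746. The intracellular inhibitor Cstb had 184 and 178 CPM in CTR, 142 and 34.2 in OAT-1746, 296 and 243 in anti-PD-1, and 179, 316 and 278 in COMB, with OAT-1746 replicate 2 far below the rest, and -1.04 ± 0.53 and 1.55 ± 0.50 in the same comparisons; for Cstb these were -2.41 and 2.92 without OAT-1746 replicate 1 and -0.34 and 0.87 without replicate 2. Cst7 rose by 0.98 ± 0.28 in COMB against OAT-1746 (edgeR adjusted p = 0.0459), at 21.6 and 27.6 CPM in OAT-1746 and 47.7 to 49.5 in COMB. With the gene length and GC correction Cst7 had 0.28 and was not called, Cstb had 0.86 there and -0.59 against CTR, and Cst3 -1.08 in COMB against OAT-1746.

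The 4 genes of the MiT/TFE family, to which Tfeb belongs, split. Against OAT-1746, Tfec rose in COMB by 1.91 ± 0.55 (edgeR adjusted p = 0.0474) and Mitf fell by 0.96 ± 0.22 (0.0307). Tfec had 27.8 and 11.999 CPM in CTR, 10.5 and 2.80 in OAT-1746, 17.8 and 24.1 in anti-PD-1, and 16.8, 27.3 and 30.4 in COMB and Mitf 26.3 and 23.3 CPM in CTR, 26.0 and 41.3 in OAT-1746, 21.04 and 27.6 in anti-PD-1, and 19.3, 15.2 and 17.5 in COMB. Tfec is lowest, and Mitf highest, in OAT-1746 replicate 2. In OAT-1746 against CTR their values were -1.58 ± 0.58 and 0.44 ± 0.24, with 3 of the 4 genes higher; edgeR called 0, DESeq2 called 1, and 1 was under 0.05 before adjustment. Without OAT-1746 replicate 1 those of Tfec and Mitf were -2.83 and 0.73, without OAT-1746 replicate 2 Mitf had 0.08, and without CTR replicate 1 Tfec had -0.84. In COMB against OAT-1746 Tfec ran from 1.26 without OAT-1746 replicate 2 to 3.15 without replicate 1, and Mitf had -0.57 without OAT-1746 replicate 2. Tfe3, the most abundant of the family, was at 158 and 173 CPM in CTR, 192 and 212 in OAT-1746, 156 and 161 in anti-PD-1, and 148, 152 and 155 in COMB.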

How the data were processed

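RNA-seq of CD11b+ cells sorted by FACS from tumor-bearing hemispheres was analysed in 9 libraries. The deposited table holds raw HTSeq counts, in read pairs for each gene, which the authors made by trimming with Trimmomatic, alignment to mm10 with STAR, duplicate marking with Picard and counting in reverse stranded mode at a mapping quality of at least 10, without normalization or filtering. Groups follow the titles and column names, also for anti-PD-1 replicate 2, whose treatment field reads anti-PD-2, and no library was excluded.

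Of 53801 genes, 53620 matched GENCODE M21 and 181 did not; 21890 were protein-coding, and filterByExpr (minimum count 10) kept 12538. edgeR 4.0.16 in R 4.3.3 normalized by TMM and fitted 1 quasi-likelihood model with a mean per group (common biological coefficient of variation 0.214, prior degrees of freedom 4.15). The 7 tests are the 5 comparisons of groups, the interaction and the test over all 4 groups, two-sided, each adjusted by Benjamini-Hochberg over all tested genes and called at an adjusted p under 0.05. Log2 CPM used a prior count of 2. Alternatives were DESeq2 1.42.0, edgeR with DESeq2's size factors or with library sizes alone, no filter on low counts, all genes, replicate number added as a block, a loess correction (span 0.5) for gene length and GC content, both of these together, and leaving out each library. The steps were tried on simulated counts in which 200 genes had a log2 fold change of 2 in either direction in OAT-1746. No simulated library was set apart from its group, so this does not bear on smaller changes or on OAT-1746 replicate 2. limma 3.58.1 was loaded with edgeR. Python 3.11.15 with matplotlib 3.10.9 made the figures.

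The members and lists were chosen with earlier results of these data known. Named are 18 members chosen by role, the 2 highest and 2 lowest log2 fold changes among members in each comparison (mean of at least 5 CPM), every called member (at most 10 a comparison), and genes with the highest or lowest value of each pathway list in OAT-1746 against CTR and in COMB against OAT-1746. Called genes of the pathway lists were added after their values were seen. Promoters are from RefSeq (GRCm38.p6).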

Additional observations from a re-analysis of the deposited data

How the results depend on the processing

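For the pairs of a named gene and a comparison that were chosen for this check, which are not all pairs, the 17 alternatives gave log2 fold changes of which 1312 kept their direction and their side of the threshold, 84 passed it where the reported value did not, 160 no longer passed it and 8 turned their direction. The 8 were, in OAT-1746 against CTR, Ctss (0.0522 with the gene length and GC correction, 0.0397 with that correction and the replicate block) and Tfeb (-0.13 and -0.13); without CTR replicate 1, Ctsf in anti-PD-1 against CTR (-0.03) and in COMB against CTR (-0.0076) and Smpd1 in COMB against CTR (-0.10); and without anti-PD-1 replicate 1, Ctsf in anti-PD-1 against CTR (-0.0649). With each library left out in turn, Ctsf reached at most 0.72 in anti-PD-1 and 0.72 in COMB, and Smpd1 0.69 in COMB, all without CTR replicate 2. DESeq2 called 1996 genes and 10 members in OAT-1746 against CTR, 14 genes in anti-PD-1 against CTR, 35 in COMB against CTR, 3062 genes and 10 members in COMB against OAT-1746, 47 genes in COMB against anti-PD-1 (members' median 0.10), 1025 genes and 5 members in the interaction (median 0.19) and 2121 genes and 6 members over the 4 groups. DESeq2's size factors gave members' medians of 0.10 in COMB against anti-PD-1 and 0.19 in the interaction. Library size alone gave medians against CTR of 0.0054 for OAT-1746, -0.10 for anti-PD-1 and -0.0501 for COMB, of -0.0738 in COMB against OAT-1746 and of 0.0737 in the interaction, with 24 genes called in the last; the medians of all genes moved along, to 0.0974, 0.0590, 0.0329, -0.0457 and -0.109. Without a filter edgeR called 587 genes and 1 member in OAT-1746 against CTR, 2 genes in COMB against CTR (median -0.0603), 5 members in COMB against OAT-1746, 2 genes in COMB against anti-PD-1 (median 0.10), 146 genes in the interaction, and 361 genes and 1 member over the 4 groups. All genes in place of protein-coding ones gave medians of -0.16 in anti-PD-1 against CTR and 0.10 in COMB against anti-PD-1, and 18 genes in the interaction. With the replicate block 2 genes and 0 members were called in COMB against OAT-1746, with 0 of the 13 called genes of the pathway lists (also 0 with the block and the gene length and GC correction), 0 genes in the interaction (median 0.12) and 0 over the 4 groups; after removal of group means, libraries of the same number correlated with r of -0.349 to 0.0999. The gene length and GC correction gave medians of -0.12 in OAT-1746 and -0.21 in anti-PD-1 against CTR, and 39 genes over the 4 groups. With the block added the medians were -0.12, -0.21 and, for COMB, -0.14 against CTR and -0.0502 in COMB against OAT-1746, where 4 genes and 0 members were called, and 0 genes were called in the interaction and 0 over the 4 groups. Leaving out 1 library gave 0 to 3617 genes and 0 to 13 members in OAT-1746 against CTR, 5 to 4033 genes and 0 to 12 members in COMB against OAT-1746, 0 to 52 genes in COMB against anti-PD-1, 0 to 2734 genes and 0 to 8 members in the interaction, and 0 to 2381 genes and 0 to 5 members over the 4 groups; the members' median ran from -0.16 to -0.10 in anti-PD-1 against CTR, from 0.0439 to 0.13 in COMB against anti-PD-1 and from 0.11 to 0.21 in the interaction. The cause was not tested. Genes with hardly any counts, such as Ctsg and the stefin genes, could not be tested.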

Other observations

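Ifi30, the thiol reductase of the lysosome that unfolds antigens, is annotated in GENCODE M21 as a processed transcript and so was left out of the tests of protein-coding genes. It had 15675 and 12781 counts in CTR, 10599 and 4351 in OAT-1746, 11117 and 14791 in anti-PD-1, and 8859, 14539 and 13080 in COMB. OAT-1746 replicate 2 is the lowest. Of the other listed genes that were not tested, Ctsg, the neutrophil protease cathepsin G, had at most 4 counts in any library, and the stefin genes Stfa1, Stfa2 and Stfa3 at most 2.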
